A study of Rattus norvegicus with 12 samples.

Results

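The genes described here are 35 genes of the endoplasmic reticulum (ER), the chaperones, folding enzymes, stress sensors, degradation and translocation factors usually grouped as ER chaperones and the unfolded protein response. The members were named as a list by function, each symbol had 1 row in the deposited table of 21071 genes, and all 35 passed the filter on low counts, with 15650 genes in all. They were followed through 12 RNA-seq libraries of rat nucleus pulposus cells, which make up the gelatinous core of the intervertebral disc, in 4 groups of 3. Every group received exosomes at 50 µg/mL. The first group had NPPC-Exo, exosomes from nucleus pulposus progenitor cells, and the second miR-Exo, NPPC-Exo that overexpress miR-221-3p. The other groups had the same exosomes and erastin, an inhibitor of cystine import used to induce ferroptosis, an iron-dependent form of cell death driven by lipid peroxidation. The protocol gives erastin as 0.1 to 5 µM for 48 h with no dose for each library, and the count columns call these groups Model where the titles say erastin. No group without exosomes was analysed here, so every comparison is between cells given exosomes. The labels call the nucleus pulposus cells both a cell line and a cell type, with no line name. Whether replicate libraries stem from separate cultures is not in the labels, and p-values therefore measure only the spread between libraries, which may be technical.

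Proteins bound for secretion, such as the collagens and proteoglycans that disc cells make in bulk, enter the ER through the Sec61 channel and fold there with the help of Hsp70, Hsp90, lectin and disulfide-exchange chaperones. When folding falls behind, the sensors Ire1 (Ern1), Perk (Eif2ak3) and Atf6 are released. Ire1 splices the mRNA of the transcription factor Xbp1, Atf6 is cut to a transcription factor, and Perk slows translation, so that chaperone and degradation genes are induced as the unfolded protein response.

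Library totals ran from 54616827 to 68865720 counts. FPKM is used to set genes beside each other, for some group levels, and as an alternative scaling tested with limma. Levels are otherwise CPM, counts scaled to a fixed library size, with library totals adjusted by trimmed means of M values (TMM). TMM factors ran from 0.877 with NPPC-Exo to 1.15 with erastin and miR-Exo. This scaling matters for the module: with library totals alone, the median log2 fold change of all genes moved from 0.018 to 0.3 for erastin with NPPC-Exo, from 0.029 to 0.334 for erastin with miR-Exo, and by less than that for miR-Exo, from 0 to 0.079 without and 0.011 to 0.115 with erastin. A member is said to rise or fall where edgeR's quasi-likelihood test gave a Benjamini-Hochberg adjusted p under 0.05, and log2 fold changes are given ± SE with n = 3 libraries a group. Of 14 listed nucleus pulposus and cartilage genes 10 were in the table, with Tbxt and Krt19 not among them. Their summed level, mostly Acan and Col2a1, was 7120 to 8150 CPM with NPPC-Exo, 7100 to 8590 with miR-Exo, 1120 to 1260 with erastin and NPPC-Exo and 856 to 923 with erastin and miR-Exo. Sox9, Comp, Ca3 and Pax1 also had lower means in both erastin groups. Cd24 went the other way, with means of 8.82, 12.7, 15.9 and 21.3 CPM in that order, as did Foxf1 at 1.26, 1.64, 2.88 and 2.4. Krt8 was at 3.17, 5.09, 2.85 and 3.18 CPM, and Krt18 at 0.12 or less. Leukocyte genes summed to 7.53 to 9.64, 10.2 to 11.5, 13.1 to 17.7 and 22.4 to 29.9 CPM in the same order, mostly Cd14, with Adgre1 at 0 in 3 of the 4 groups, while 5 plasma and B cell genes, the cell types richest in ER, summed to at most 0.856 CPM. The endothelial genes in the table, 3 of 6, summed to 1.01 to 1.82, 1.49 to 1.72, 3.1 to 3.4 and 3.24 to 3.78 CPM in that order. Most of this was Tek, with means of 1.07, 1.37, 2.67 and 2.71 CPM, while Kdr was at 0 in both erastin groups. The erythroid genes, 3 of 5, summed to at most 0.357 CPM. In bulk RNA, fewer cells of a type and less RNA per cell cannot be told apart, and the part of these marker changes in the results below was not tested.

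By FPKM the module spanned a wide range in cells given NPPC-Exo, from 1482 for Serpinh1, the collagen chaperone Hsp47, to 0.59 for Derl3, a degradation factor. Next to Serpinh1 came the lectin chaperone Calr at 847, the disulfide isomerase P4hb at 617, the Hsp90 chaperone Hsp90b1 at 569 and the Hsp70 chaperone Hspa5 at 527. The sensors were far lower, with Ern1 at 5.13, Eif2ak3 at 9.13 and Atf6 at 41.6. Serpinh1 ranked first of the 35 by FPKM in 3 groups and 3rd in cells given erastin and miR-Exo, behind Calr and P4hb. The FPKM of Serpinh1 over that of Hspa5, a ratio that no scaling of libraries can move, was 3.16, 2.55 and 2.73 given NPPC-Exo and 3.39, 2.92 and 2.81 given miR-Exo. Under erastin it was 1.71, 1.78 and 2.0 given NPPC-Exo and 1.25, 1.18 and 1.37 given miR-Exo, so that the erastin groups lay below the others and apart from each other. This pair was chosen after its values were seen.

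**Figure D1:**
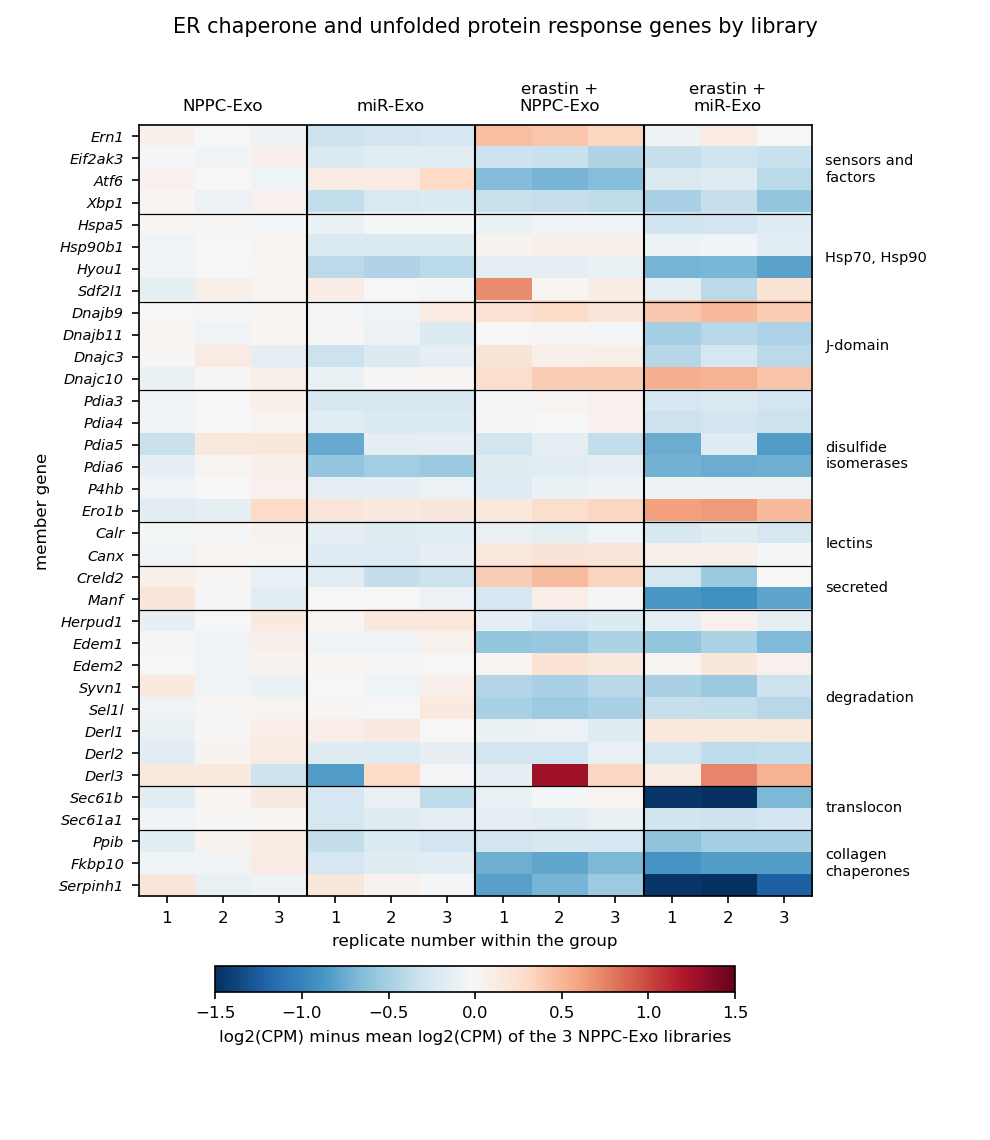
Each row is 1 of the 35 member genes, ordered by role, and each column 1 of the 12 libraries. Colour gives log2(CPM) minus the mean log2(CPM) of the NPPC-Exo libraries, from -1.5 (blue) to 1.5 (red), and values outside that range take the end colour. Serpinh1, Fkbp10, Edem1 and Sel1l are blue in both erastin groups, Hyou1 and Pdia6 in both miR-Exo groups, and Manf with erastin and miR-Exo.

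Promoters of ER chaperone genes are known to carry the ER stress response elements bound by Atf6 and Xbp1 together with NF-Y. A promoter window of 300 bases, 250 before to 50 after the transcription start in RefSeq (build GRCr8), was matched by symbol for 27 of the 35 members, not for Ern1, Atf6, Pdia3, Pdia6, Manf, Derl1, Sec61a1 and Fkbp10. Both strands were searched for 3 exact motifs: the ER stress response element (ERSE), CCAAT then 9 bases of any kind then CCACG; ERSE-II, ATTGG then 1 base then CCACG; and the shared core of Atf6 and Xbp1 sites, TGACGTGG. As these elements were already known from promoters of such genes, a high share among the members is no new result. The shares of all genes include the members. An ERSE was found in 9 of the 27 (33.3%), against 21 of 27457 genes with a window (0.0765%). ERSE-II was found in 3 members (11.1%, against 0.0619% of all genes) and the core in 2 (7.41%, against 0.681%), and 13 members had at least 1 of the 3 (48.1%, against 0.816%). Of the other ER and secretory genes listed below, 138 had a window. None of these had an ERSE, 1 had an ERSE-II (Nucb1) and 8 had a core match, so that 9 genes (6.52%) held at least 1 of the 3. All shares are of genes, and with 33469 windows for 27457 genes some genes had more than 1 window. The stretch with the matches is printed for 6 members with a match, those called in the most comparisons with the interaction included, with 20 bases either side where the window allows and the fixed letters of each motif in capitals. Hyou1 (chr8:53602671-53602824, plus strand) holds 2 ERSE-II matches read on the opposite strand, the first overlapping a core match, Hsp90b1 (chr7:23012327-23012489, minus strand) holds 2 ERSE matches, 1 on each strand, and Calr (chr19:40213117-40213173, plus strand) 1 on the opposite strand. Canx (chr10:35158049-35158107, minus strand), Xbp1 (chr14:84604538-84604596, plus strand) and Dnajb11 (chr11:91672780-91672830, minus strand) hold 1 match each on the gene's own strand, an ERSE in the first 2 and in Dnajb11 an ERSE-II that ends on the first transcribed base. A match is a description of these letters, not a site in use.
Hyou1: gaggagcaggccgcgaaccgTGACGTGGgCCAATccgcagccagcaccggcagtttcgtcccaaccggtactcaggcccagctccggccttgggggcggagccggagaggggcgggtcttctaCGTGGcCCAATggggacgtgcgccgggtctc
Canx: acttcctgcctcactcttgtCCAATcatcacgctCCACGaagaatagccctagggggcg
Dnajb11: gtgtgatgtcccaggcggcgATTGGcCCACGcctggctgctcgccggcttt
Xbp1: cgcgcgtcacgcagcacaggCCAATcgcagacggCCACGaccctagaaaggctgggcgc
Hsp90b1: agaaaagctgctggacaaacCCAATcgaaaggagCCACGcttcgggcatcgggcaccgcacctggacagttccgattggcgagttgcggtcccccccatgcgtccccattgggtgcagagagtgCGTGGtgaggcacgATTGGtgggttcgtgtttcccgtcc
Calr: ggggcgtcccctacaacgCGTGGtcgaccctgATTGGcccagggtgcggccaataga

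**Figure D2:**
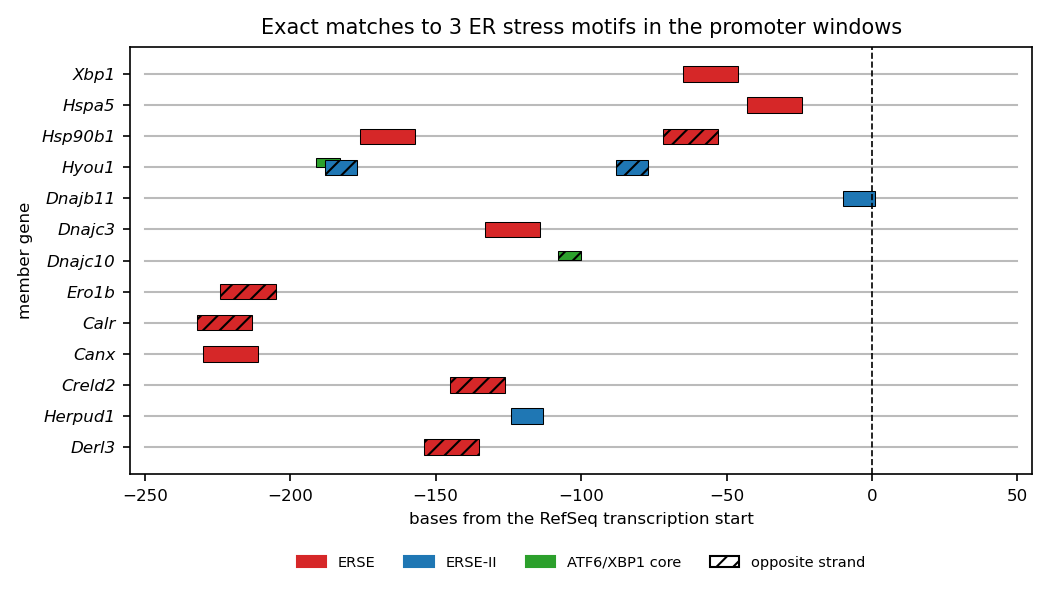
Positions of the exact motif matches in the promoter windows of the 13 members that have one, in bases from the RefSeq transcription start (dashed line), with boxes drawn to scale and hatched where the match is on the opposite strand. ERSE matches lie between 232 and 25 bases before the start, and the ERSE-II of Dnajb11 reaches the start itself.

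With either exosome, erastin raised the sensor Ern1 and the co-chaperones Dnajb9 and Dnajc10 and lowered the collagen chaperones Serpinh1 and Fkbp10 and the degradation factor Edem1, under each of the 4 scalings tried. In cells given NPPC-Exo, 5 of 35 members rose and 16 fell with erastin, where 21.4% of all genes tested rose and 22.1% fell (21 members called in either direction, against 43.5%), and the median of the members was -0.103. In cells given miR-Exo, 6 rose and 15 fell, where 24.8% and 24.3% of all genes did (21 called, against 49.1%), with a median of -0.142. The median of all genes was 0.018 and 0.029, and with library totals alone the direction of the module turned, to 19 higher and 5 lower (median 0.18, all genes 0.3) with NPPC-Exo and to 16 higher and 5 lower (median 0.163, all genes 0.334) with miR-Exo. Of all 15650 genes, 6388 were then higher and 1832 lower with NPPC-Exo, and 6962 and 2123 with miR-Exo. The members' medians stayed below those of all genes. Under TMM, median-of-ratios, library-total and FPKM scaling alike, erastin raised Ern1, Dnajb9, Dnajc10, Canx and Creld2 and lowered Atf6, Edem1, Sel1l, Fkbp10 and Serpinh1 with NPPC-Exo. The 4 are in effect 2 scalings. FPKM, tested with limma, are divided by library totals, and median-of-ratios factors left 173 of 175 member results as under TMM. With miR-Exo the members called under all 4 were Ern1, Hsp90b1, Dnajb9, Dnajc10, Ero1b and Canx, which rose, and Manf, Edem1, Fkbp10 and Serpinh1, which fell. The comparisons share no library but share the fit's estimate of spread, and 4 members rose and 10 fell in both. How many of all genes did so was not counted. For 6 members with NPPC-Exo and 8 with miR-Exo all 3 erastin libraries lay above all 3 without (27% and 30.3% of all genes), and for 16 and 18 they lay below (26.6% and 28.1%). Leaving out 1 library moved the count of members that fell with NPPC-Exo by over 1.5 times, to 9 without replicate 1 or replicate 2 of erastin with NPPC-Exo and to 10 without NPPC-Exo replicate 2 or 3.

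**Figure D3:**
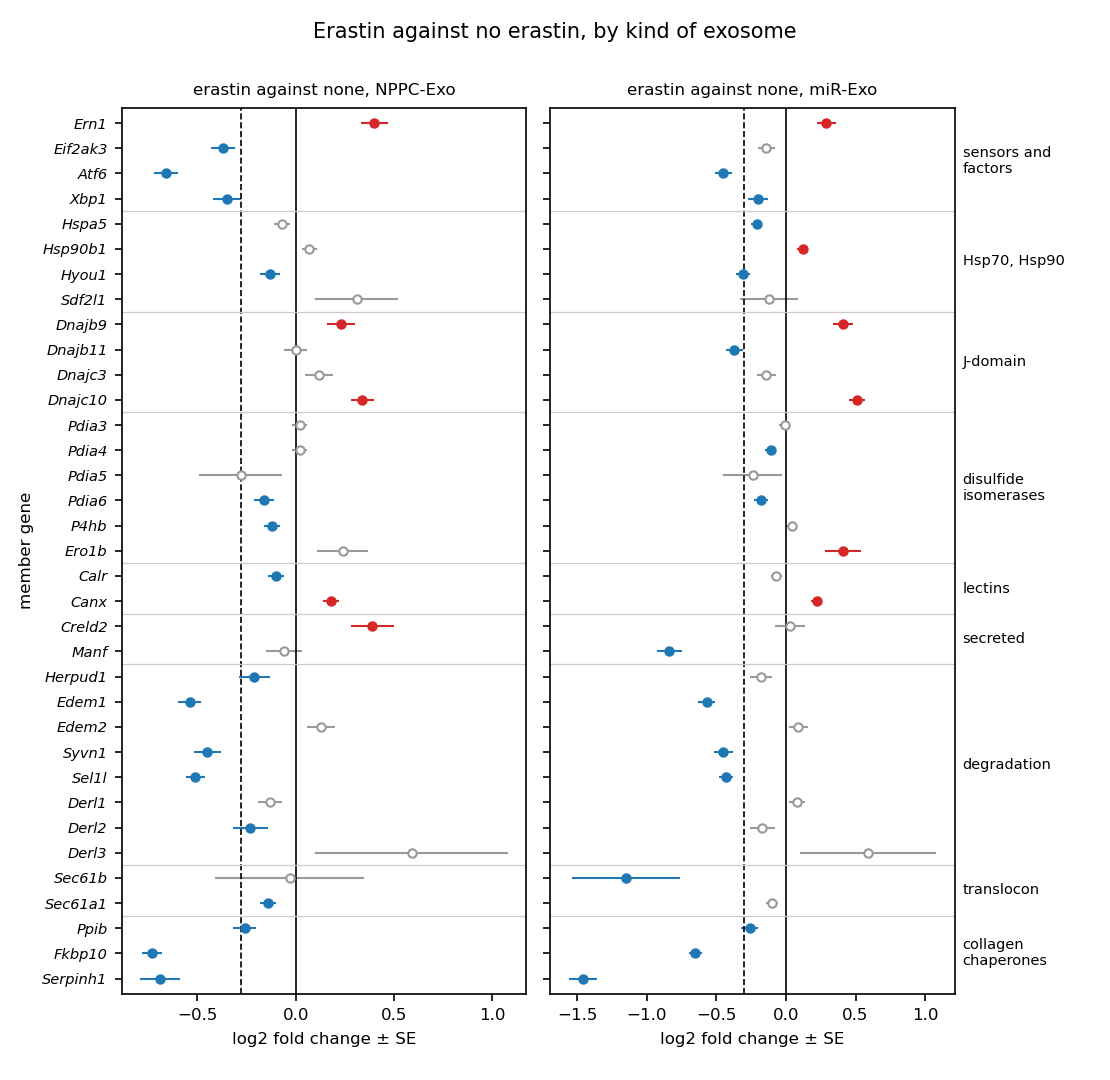
Log2 fold change ± SE of each member, erastin against none, with NPPC-Exo (left) and with miR-Exo (right), from edgeR on 3 libraries a group. Red points rose, blue points fell and open grey points did not pass the adjusted p of 0.05. The solid line is 0 under TMM scaling and the dashed line is where 0 would lie with library totals alone, at -0.28 and -0.3. Members between the lines take the other sign when library totals are used.

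The chaperone Hyou1 and the disulfide isomerase Pdia6 had lower levels with miR-Exo than with NPPC-Exo, without and with erastin and under each of the 4 scalings. Without erastin, 12 of 35 members fell and 0 rose, where 6.77% of all genes tested fell and 4.28% rose (11.1% called in either direction), and the members' median was -0.157 against 0 for all genes. No member rose in DESeq2 either, and at an unadjusted p under 0.05 there was 1 higher. With erastin, 17 fell and 2 rose, where 15.7% and 15.8% of all genes did (19 called, against 31.5%), with a median of -0.126 against 0.011. With library totals alone the counts were 3 lower and 1 higher without erastin (median -0.075, all genes 0.079) and 11 lower and 8 higher with it (median -0.025, all genes 0.115). Of all 15650 genes, 598 were then lower and 1294 higher without erastin, and 1732 and 3827 with it. With erastin, calls under all 4 scalings held also for Ern1, Dnajb11, Dnajc3, Pdia3, Pdia4, Creld2, Manf, Sec61b and Serpinh1, which fell, and for Atf6 and Derl1, which rose. The comparisons share no library but share the fit's estimate of spread, and 10 members fell in both. How many of all genes fell in both was not counted. Members whose groups did not overlap were 15 lower and 1 higher without erastin (15.8% and 13% of all genes) and 18 lower and 6 higher with it (23.4% and 24.5%). Without miR-Exo replicate 1, the library whose removal lowered the count most, 8 members fell in the comparison without erastin. With erastin, the count that rose went to 5 without NPPC-Exo replicate 1, which is in neither group of that comparison.

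**Figure D4:**
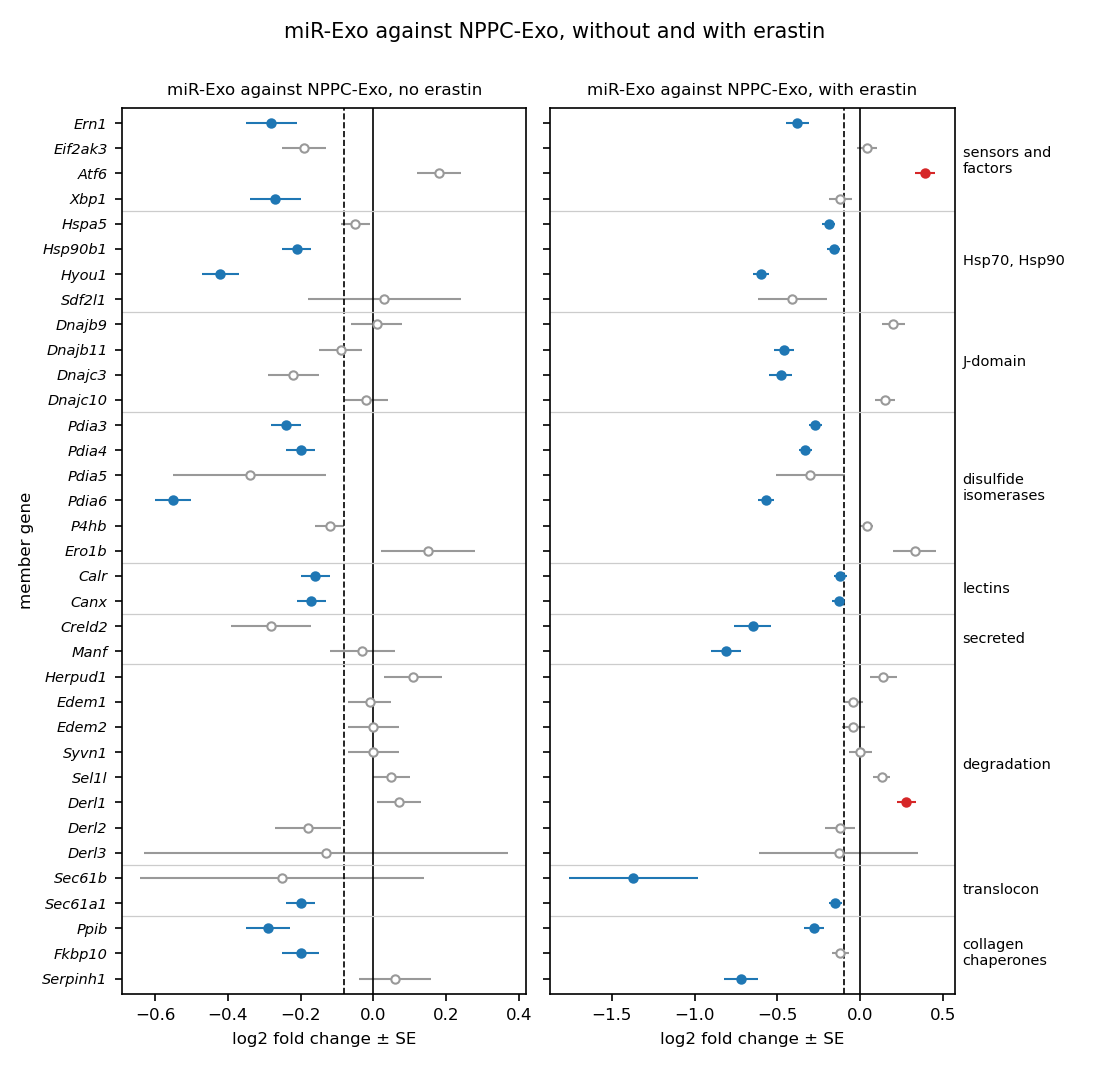
Log2 fold change ± SE of each member, miR-Exo against NPPC-Exo, without erastin (left) and with erastin (right), with colours and lines as for erastin. The dashed line lies at -0.08 and -0.1, so that fewer members sit between the lines. Hyou1 and Pdia6 fall to the left of both lines in both panels.

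For 3 members the erastin difference depended on the exosome by the interaction test: Manf, Serpinh1 and Dnajb11 had a lower erastin log2 fold change with miR-Exo than with NPPC-Exo, under each of the 4 scalings, and 0 members had a higher one, where 6.61% of all genes were called lower and 5.9% higher. Manf, a small secreted protein of the ER that protects stressed cells, had 150.1, 130.1 and 119 CPM with NPPC-Exo, 133, 133 and 124 with miR-Exo, 111, 141 and 131 under erastin with NPPC-Exo and 72.1, 69.9 and 76.4 under erastin with miR-Exo. Only the last group stood apart. Its log2 fold change with erastin was -0.06 ± 0.09 with NPPC-Exo (adjusted p 0.658) and -0.84 ± 0.09 with miR-Exo (adjusted p 2.59e-06), a difference of -0.78 ± 0.13 (adjusted p 0.00169). Serpinh1, which binds procollagen in the ER, had 4179, 3396 and 3489 CPM with NPPC-Exo, 4129, 3794 and 3612 with miR-Exo, 2084, 2271 and 2511 under erastin with NPPC-Exo and 1335, 1279 and 1569 under erastin with miR-Exo. Every erastin library was below every library without it, and the 2 erastin groups did not overlap each other. The fall was -0.69 ± 0.10 with NPPC-Exo and -1.46 ± 0.10 with miR-Exo, a difference of -0.78 ± 0.14 (adjusted p 0.00503). Dnajb11, a J-domain partner of Hspa5, had 180.5, 171 and 181 CPM with NPPC-Exo, 179.6, 167 and 154 with miR-Exo, 176, 180.0 and 176 under erastin with NPPC-Exo and 125, 132 and 129 under erastin with miR-Exo, and again the libraries with both erastin and miR-Exo lay below all others. Its difference between the exosomes was -0.37 ± 0.08 (adjusted p 0.00749), and the calls of these 3 members held in each of the 12 fits that left out 1 library. At an unadjusted p under 0.05 the interaction gave 4 higher and 8 lower, and with DESeq2 the call of Hyou1 was added (-0.19, adjusted p 0.0283 in DESeq2).

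Within groups, the main direction of spread between libraries over all genes (28.2% of it) set replicate 3 of erastin with miR-Exo against replicate 2, and replicate 1 of NPPC-Exo and of miR-Exo against the other libraries of their groups. By percentile of all genes along it, Sec61b was at 94, Serpinh1 at 90, Creld2 at 89, Manf at 87, Syvn1 at 83 and Dnajb11 at 70, with Herpud1 at 7 and Pdia5 at 0 at the other end. Its part in their results was not tested.

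**Figure D5:**
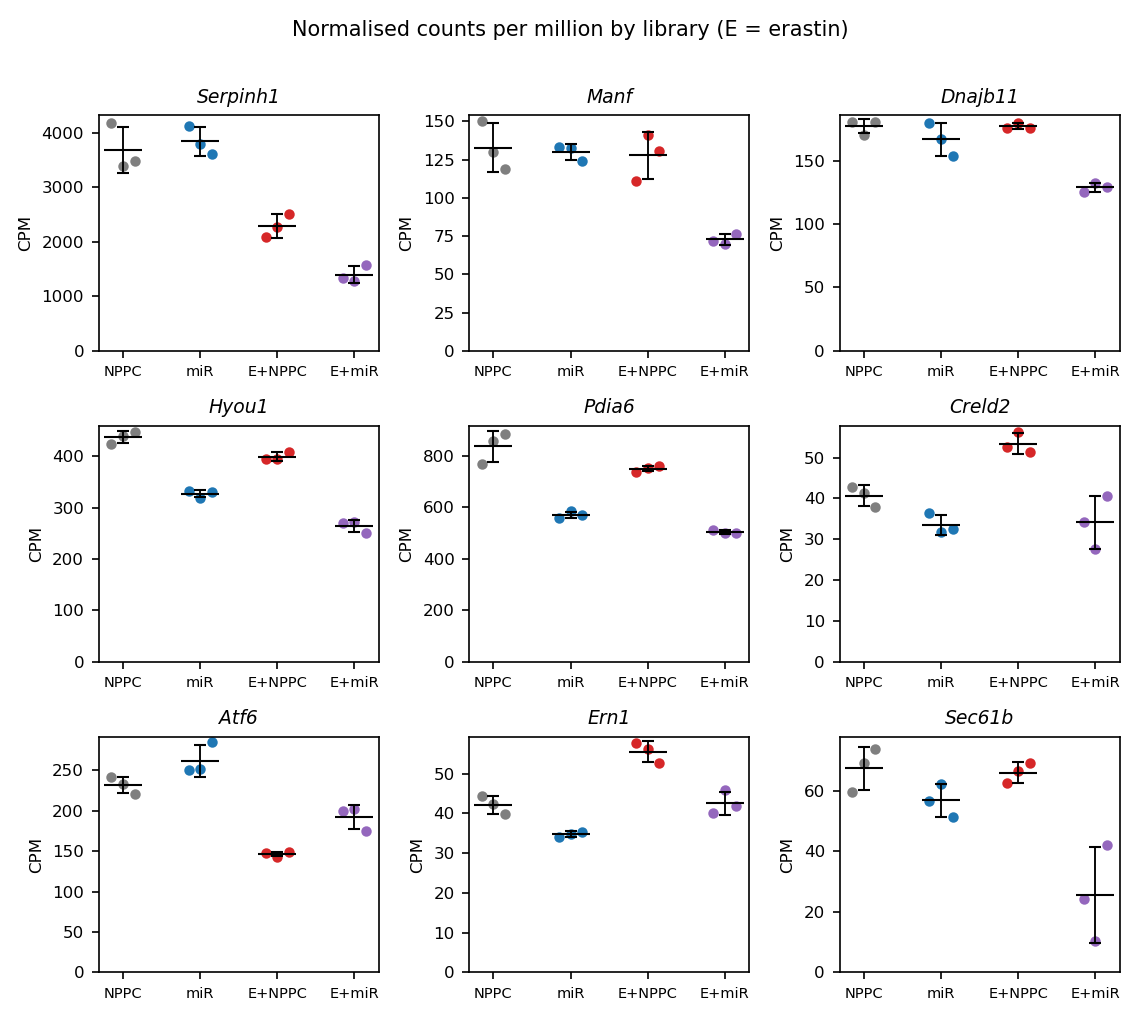
CPM of 9 members in every library (points, 3 a group, in order of replicate number), with the mean (long bar) and SD, each axis starting at 0. Manf and Dnajb11 are low only with erastin and miR-Exo, Hyou1 and Pdia6 are low in both miR-Exo groups, Atf6 is lowest and Ern1 highest with erastin and NPPC-Exo, and Sec61b is spread widely with erastin and miR-Exo. CPM is scaled by TMM, and by mean FPKM Dnajb11 is instead set apart as highest with erastin and NPPC-Exo.

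Of the sensors, Ern1 and Atf6 went opposite ways. Ern1, the kinase and RNase that splices Xbp1 mRNA, had 44.3, 42.3 and 39.9 CPM with NPPC-Exo, 34.0, 34.9 and 35.4 with miR-Exo, 57.7, 56.1 and 52.7 under erastin with NPPC-Exo and 40.1, 45.8 and 41.8 under erastin with miR-Exo. The erastin libraries lay above their controls for both exosomes, and the miR-Exo libraries below NPPC-Exo in both states. Ern1 rose with erastin by 0.40 ± 0.07 (adjusted p 0.000184) and 0.29 ± 0.07, and with miR-Exo it fell, at -0.28 ± 0.07 (adjusted p 0.0157) and -0.38 ± 0.07 (adjusted p 0.000535). Its call for miR-Exo without erastin was lost with library totals alone (adjusted p 0.0806) and without NPPC-Exo replicate 2 or miR-Exo replicate 1 (up to 0.0554). Atf6, the membrane-bound factor that is cleaved in the Golgi, had 241, 233 and 221 CPM with NPPC-Exo, 249.7, 251 and 284 with miR-Exo, 148, 143 and 149 under erastin with NPPC-Exo and 199, 202 and 174 under erastin with miR-Exo. Levels were lowest with erastin and NPPC-Exo and highest with miR-Exo, and no erastin library reached a library without it. Atf6 fell with erastin with a log2 fold change of -0.66 ± 0.06 with NPPC-Exo (adjusted p 7.59e-07) and -0.45 ± 0.06 with miR-Exo, the latter at -0.14 with library totals alone (adjusted p 0.068). In erastin-treated cells it rose with miR-Exo by 0.39 ± 0.06 (adjusted p 0.000358), and without erastin the value was 0.18 ± 0.06 (adjusted p 0.1). The latter was called higher with library totals alone (0.26, adjusted p 0.0165).

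Eif2ak3, the kinase that phosphorylates the initiation factor eIF2 alpha, had 47.6, 47.3 and 51.2 CPM with NPPC-Exo, 42.0, 43.2 and 43.3 with miR-Exo, 39.3, 38.5 and 35.6 under erastin with NPPC-Exo and 38.2, 39.5 and 38.7 under erastin with miR-Exo. The NPPC-Exo libraries were highest and did not overlap any other group. With NPPC-Exo it fell with a log2 fold change of -0.37 ± 0.06 with erastin (adjusted p 0.000159), a value of -0.08 with library totals alone (adjusted p 0.3), and with miR-Exo the value was -0.14 ± 0.06 (adjusted p 0.0664). The latter became 0.16 with library totals alone and was called higher (adjusted p 0.0389). Xbp1, the factor made from the spliced mRNA, had 106, 97.6 and 109 CPM with NPPC-Exo, 80.7, 88.6 and 89.9 with miR-Exo, 82.8, 81.8 and 80.0 under erastin with NPPC-Exo and 74.1, 81.8 and 69.2 under erastin with miR-Exo. NPPC-Exo was again the highest group. Xbp1 fell with erastin with a log2 fold change of -0.35 ± 0.07 and -0.20 ± 0.07, and with miR-Exo without erastin with a log2 fold change of -0.27 ± 0.07, and all of these calls were lost with library totals alone (-0.07, 0.10 and -0.19). The count per gene does not separate spliced from unspliced Xbp1.

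Of the Hsp70 and Hsp90 chaperones, Hyou1 had the largest log2 fold changes with miR-Exo. Hspa5 (BiP), the Hsp70 that holds the sensors inactive, had 1618, 1628 and 1567 CPM with NPPC-Exo, 1493, 1588 and 1573 with miR-Exo, 1495, 1559 and 1535 under erastin with NPPC-Exo and 1303, 1325 and 1405 under erastin with miR-Exo. The last group lay below the rest. Erastin gave -0.07 ± 0.04 with NPPC-Exo (adjusted p 0.219) and a fall of -0.21 ± 0.04 with miR-Exo (adjusted p 0.000927), which with library totals alone became 0.21 (adjusted p 0.000918) and 0.10 (adjusted p 0.075). With miR-Exo Hspa5 was at -0.05 ± 0.04 without erastin and fell with a log2 fold change of -0.19 ± 0.04 with it (adjusted p 0.00391, and -0.08 with library totals alone, adjusted p 0.174). Hyou1, an Hsp70-like exchange factor for Hspa5, had 424, 439.9 and 448 CPM with NPPC-Exo, 333, 319 and 329.7 with miR-Exo, 394, 395 and 409 under erastin with NPPC-Exo and 269.8, 272 and 249.8 under erastin with miR-Exo. The miR-Exo libraries lay below the NPPC-Exo libraries in both states without overlap. In cells without erastin Hyou1 fell with miR-Exo with a log2 fold change of -0.42 ± 0.05 (adjusted p 3.89e-05), and in erastin-treated cells with a log2 fold change of -0.60 ± 0.05 (adjusted p 2.9e-07), changes in level of -25.2% and -33.9%. With erastin the values were -0.13 ± 0.05 and -0.31 ± 0.05, both called lower, but 0.15 (adjusted p 0.00876) and -0.01 with library totals alone. Hsp90b1, the Hsp90 of the ER (Grp94), had 2087, 2172 and 2218 CPM with NPPC-Exo, 1857, 1856 and 1877 with miR-Exo, 2246, 2275 and 2267 under erastin with NPPC-Exo and 2050, 2102 and 1928 under erastin with miR-Exo, and the miR-Exo group was the lowest. It fell with miR-Exo with a log2 fold change of -0.21 ± 0.04 and -0.16 ± 0.04, -0.13 and -0.06 with library totals alone (neither called), and rose with erastin by 0.12 ± 0.04 in cells given miR-Exo. That last call was lost without replicate 1 or 2 of miR-Exo, replicate 3 of erastin with NPPC-Exo or replicate 1 or 2 of erastin with miR-Exo (adjusted p up to 0.159). Sdf2l1, a partner of Hspa5, stayed between 2.68 and 5.81 CPM in all libraries, with log2 fold changes from -0.41 to 0.31 and no call under TMM. It was called higher for erastin with NPPC-Exo when scaled by library totals alone (0.60, adjusted p 0.0247).

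Among the J-domain co-chaperones, which hand clients to Hspa5, Dnajb9 and Dnajc10 rose with erastin for both exosomes under all 4 scalings. Dnajb9, which also represses Ire1, had 22.6, 22.3 and 23.1 CPM with NPPC-Exo, 22.4, 21.6 and 24.7 with miR-Exo, 26.2, 27.5 and 25.8 under erastin with NPPC-Exo and 30.1, 31.8 and 29.4 under erastin with miR-Exo. Dnajc10, a disulfide reductase with a J domain, had 273, 296 and 313 CPM with NPPC-Exo, 273, 298 and 299 with miR-Exo, 353, 383 and 383 under erastin with NPPC-Exo and 428, 421 and 394 under erastin with miR-Exo. In both genes every erastin library was above every library without it. The rise of Dnajb9 was 0.23 ± 0.07 with NPPC-Exo (adjusted p 0.0219, up to 0.0648 without NPPC-Exo replicate 2 or replicate 2 of erastin with NPPC-Exo) and 0.41 ± 0.07 with miR-Exo (adjusted p 0.000289). That of Dnajc10 was 0.34 ± 0.06 and 0.51 ± 0.06 (adjusted p 0.00022 and 4.02e-06). Dnajc3, the co-chaperone p58IPK, and Dnajb11 had lower levels with miR-Exo in erastin-treated cells, at -0.48 ± 0.07 (adjusted p 0.000192) and -0.46 ± 0.06 (adjusted p 2.22e-05), and both calls held under all 4 scalings. Dnajc3 was at -0.22 ± 0.07 without erastin (adjusted p 0.07).

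Pdia6 had the largest exosome log2 fold changes of the disulfide isomerases among the members, enzymes that form and shuffle the disulfide bonds of clients. Its level was 771, 859 and 884 CPM with NPPC-Exo, 558, 585 and 569 with miR-Exo, 739, 752 and 759 under erastin with NPPC-Exo and 512, 499 and 502 under erastin with miR-Exo, with no overlap between the exosomes in either state. Pdia6 fell with miR-Exo in cells without erastin with a log2 fold change of -0.55 ± 0.05 (adjusted p 5.59e-06) and with a log2 fold change of -0.57 ± 0.05 (adjusted p 7.95e-07) in erastin-treated cells, changes in level of -31.9% and -32.8%. Its FPKM over that of P4hb, a pair also chosen after the values were seen, was 0.619 to 0.668 with NPPC-Exo, 0.467 to 0.494 with miR-Exo, 0.618 to 0.651 with erastin and NPPC-Exo, and 0.406 to 0.415 with erastin and miR-Exo. Pdia3 (ERp57), which works with the lectin chaperones on glycoproteins, had 996, 1036 and 1095 CPM with NPPC-Exo, 885, 884 and 882 with miR-Exo, 1018, 1068 and 1087 under erastin with NPPC-Exo and 875, 894 and 855 under erastin with miR-Exo. Here too the miR-Exo libraries lay below the NPPC-Exo libraries, and the fall was -0.24 ± 0.04 and -0.27 ± 0.04. Pdia4 fell with a log2 fold change of -0.20 ± 0.04 and -0.33 ± 0.04 with miR-Exo. Without erastin, the call of Pdia4 was lost with library totals alone (-0.11, adjusted p 0.0763) and that of Pdia3 in limma's test on log2(FPKM + 1) (-0.16, adjusted p 0.057), and with erastin both calls held. P4hb, which is also a subunit of collagen prolyl 4-hydroxylase, was at -0.12 ± 0.04 and 0.04 ± 0.04 with miR-Exo, neither called under TMM. In erastin-treated cells it was called higher with library totals alone (0.15, adjusted p 0.0156).

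With erastin Pdia6 fell with a log2 fold change of -0.16 ± 0.05 and -0.18 ± 0.05, P4hb with a log2 fold change of -0.12 ± 0.04 with NPPC-Exo and Pdia4 with a log2 fold change of -0.11 ± 0.04 with miR-Exo, and all 4 values were above 0 with library totals alone (0.12, 0.13, 0.16 and 0.19). Ero1b, the oxidase that recharges the isomerases, had 7.08, 7.17 and 9.70 CPM with NPPC-Exo, 8.99, 8.77 and 8.87 with miR-Exo, 8.84, 9.47 and 9.90 under erastin with NPPC-Exo and 12.1, 12.3 and 11.0 under erastin with miR-Exo. Erastin with miR-Exo was the highest group, and the rise there was 0.41 ± 0.13 (adjusted p 0.0138, up to 0.0556 without replicate 1 or 2 of that group). Pdia5, lowest at 17.3 CPM in a library of erastin with miR-Exo and highest with NPPC-Exo, had SEs of 0.21 and no call.

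Of the lectin chaperones, which hold newly glycosylated proteins, Canx rose with erastin under all 4 scalings, and the direction for Calr turned with the scaling. Canx had 893, 960.3 and 954 CPM with NPPC-Exo, 817, 821 and 857 with miR-Exo, 1043, 1067 and 1061 under erastin with NPPC-Exo and 990.1, 993 and 922 under erastin with miR-Exo, and its erastin libraries lay above their controls for both exosomes. It rose by 0.18 ± 0.04 (adjusted p 0.00457) and 0.22 ± 0.04 (adjusted p 0.000763). Calr ran from 1581 to 1942 CPM over all libraries, with -0.10 ± 0.04 and -0.07 ± 0.04 for erastin under TMM but 0.18 and 0.24 with library totals alone (adjusted p 0.00092 and 7.08e-05). With miR-Exo both were called lower, Canx with a log2 fold change of -0.17 ± 0.04 and -0.13 ± 0.04 and Calr with a log2 fold change of -0.16 ± 0.04 and -0.12 ± 0.04, and these 4 calls were lost with library totals alone (adjusted p 0.212, 0.744, 0.215 and 0.753).

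Creld2, a secreted ER stress protein like Manf, had 42.9, 41.4 and 37.8 CPM with NPPC-Exo, 36.3, 31.8 and 32.4 with miR-Exo, 52.5, 56.3 and 51.3 under erastin with NPPC-Exo and 34.1, 27.6 and 40.5 under erastin with miR-Exo. Erastin with NPPC-Exo was the highest group and overlapped no other, while the libraries with erastin and miR-Exo ran from below the miR-Exo group into the range of the NPPC-Exo group. Creld2 rose with erastin by 0.39 ± 0.11 with NPPC-Exo (adjusted p 0.00899) and was at 0.03 ± 0.11 with miR-Exo, and the difference between these, -0.37 ± 0.16, had an adjusted p of 0.138. Scaled by library totals alone, it was called higher for erastin with miR-Exo also (0.33, adjusted p 0.0179). In erastin-treated cells it fell with miR-Exo with a log2 fold change of -0.65 ± 0.11 (adjusted p 0.000424), as Manf did with a log2 fold change of -0.81 ± 0.09 (adjusted p 1.34e-05).

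Members of ER-associated degradation, which take misfolded proteins back to the cytosol, included 3 that fell with erastin for both exosomes. Edem1, a lectin that marks mannose-trimmed glycoproteins, had 78.2, 76.9 and 84.2 CPM with NPPC-Exo, 77.6, 77.1 and 83.4 with miR-Exo, 53.5, 53.6 and 57.3 under erastin with NPPC-Exo and 53.1, 57.1 and 50.2 under erastin with miR-Exo. Sel1l, the adaptor of the Hrd1 ligase, had 193, 204 and 207 CPM with NPPC-Exo, 204, 201 and 223 with miR-Exo, 144, 138 and 144 under erastin with NPPC-Exo and 159, 157 and 152 under erastin with miR-Exo, and the ligase itself, Syvn1, had 104, 91.3 and 88.1 CPM with NPPC-Exo, 93.8, 90.3 and 99.6 with miR-Exo, 69.6, 67.5 and 70.6 under erastin with NPPC-Exo and 67.5, 64.3 and 75.3 under erastin with miR-Exo. In all 3 genes every erastin library was below every library without erastin. Edem1 fell with a log2 fold change of -0.54 ± 0.06 and -0.57 ± 0.06 (adjusted p 4.5e-06 and 2.54e-06), Sel1l with a log2 fold change of -0.51 ± 0.05 and -0.43 ± 0.05 (adjusted p 9.16e-07 and 5.36e-06), and Syvn1 with a log2 fold change of -0.45 ± 0.07 and -0.45 ± 0.07 (adjusted p 0.000119 and 0.000105). With library totals alone Syvn1 was at -0.17 and -0.15 (adjusted p 0.0617 and 0.0899), and Edem1 stayed called in both. For miR-Exo their log2 fold changes lay between -0.04 and 0.13, none called under TMM. Sel1l was called higher in erastin-treated cells with library totals alone (0.24, adjusted p 0.00168). Derl1, a channel component, had 86.2, 94.3 and 100.4 CPM with NPPC-Exo, 100.1, 102 and 93.0 with miR-Exo, 87.2, 87.7 and 82.3 under erastin with NPPC-Exo and 104, 103 and 104 under erastin with miR-Exo, and in erastin-treated cells the miR-Exo libraries were the higher, with a rise of 0.28 ± 0.06 (adjusted p 0.00265). Derl2 and Herpud1 fell with erastin and NPPC-Exo with a log2 fold change of -0.23 ± 0.09 and -0.21 ± 0.08, at adjusted p 0.0462 and 0.0388, and with library totals alone neither was called (0.05 and 0.08). Among fits that left out 1 library, Derl2 kept its call only without NPPC-Exo replicate 1 or replicate 3 of erastin with NPPC-Exo, and Herpud1 lost it without NPPC-Exo replicate 2 or 3, any replicate of erastin with NPPC-Exo, or replicate 1 or 3 of erastin with miR-Exo. Edem2 had no call under TMM, with values from -0.04 to 0.13. Scaled by library totals alone, it was called higher for erastin with both exosomes (0.41 and 0.40, adjusted p 0.000243 and 0.000274). Derl3, at 0.276 to 1.20 CPM, had SEs of up to 0.50 and no call.

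Of the translocon genes, Sec61b, the beta subunit of the channel, was spread widely in the group given both erastin and miR-Exo. It had 59.6, 69.1 and 73.7 CPM with NPPC-Exo, 56.6, 62.5 and 51.5 with miR-Exo, 62.5, 66.5 and 69.2 under erastin with NPPC-Exo and 24.4, 10.4 and 42.0 under erastin with miR-Exo. The last group lay below all others but ran over a wide range, lowest in replicate 2. The log2 fold change was -1.15 ± 0.39 for erastin with miR-Exo (adjusted p 0.0382) and -1.37 ± 0.39 for miR-Exo with erastin (adjusted p 0.0289), and both calls depended on single libraries. The first call was kept only without replicate 2 or 3 of erastin with miR-Exo (adjusted p otherwise up to 0.0959), and the second was lost without any replicate of erastin with NPPC-Exo or replicate 1 of erastin with miR-Exo (up to 0.0825). The difference between the erastin effects, -1.12 ± 0.55, had an adjusted p of 0.23. Sec61a1, the pore-forming subunit, ran from 355.1 to 446.9 CPM and was called lower with erastin and NPPC-Exo (-0.14 ± 0.04, 0.14 with library totals alone) and in both miR-Exo comparisons (-0.20 ± 0.04 and -0.15 ± 0.04, not called with library totals alone).

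All 3 members that serve collagen folding were called lower with erastin for both exosomes, Serpinh1 and Fkbp10 under all 4 scalings and Ppib not with library totals alone or FPKM. Fkbp10, a prolyl isomerase of procollagen, had 595, 598 and 677 CPM with NPPC-Exo, 524, 549 and 553 with miR-Exo, 375, 363 and 390.5 under erastin with NPPC-Exo and 338, 348 and 349 under erastin with miR-Exo. Every erastin library was below every other. The fall was -0.73 ± 0.05 (adjusted p 2.7e-08) and -0.65 ± 0.05 (adjusted p 8.55e-08), changes in level of -39.7% and -36.4%. Ppib, the cyclophilin of the collagen prolyl 3-hydroxylase complex, had 290.5, 336 and 349 CPM with NPPC-Exo, 252, 282 and 266 with miR-Exo, 266, 275 and 272 under erastin with NPPC-Exo and 213, 227 and 229 under erastin with miR-Exo, and each of erastin and miR-Exo went with lower libraries. Ppib fell with a log2 fold change of -0.26 ± 0.06 and -0.26 ± 0.06 with erastin, which were 0.02 and 0.05 with library totals alone, and with a log2 fold change of -0.29 ± 0.06 and -0.28 ± 0.06 with miR-Exo, which were -0.20 and -0.18 (adjusted p 0.0626 and 0.0527). By group mean CPM scaled by TMM, Serpinh1 differed 2.76 times between the miR-Exo group and erastin with miR-Exo, and by group mean FPKM 2.24 times, where Sec61b differed more (2.41 times).

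Most of a wider list of collagen-modifying enzymes also fell with erastin, under TMM and with library totals alone. Of all genes, 21.4% rose and 22.1% fell with erastin in cells given NPPC-Exo, and 24.8% and 24.3% in cells given miR-Exo. Of 17 further enzymes, 14 fell and 1 rose with erastin in cells given NPPC-Exo (median -0.752), with the lysyl hydroxylases Plod1 at -1.06 ± 0.05 and Plod2 at -1.02 ± 0.05 and P3h1 at -0.84 ± 0.05, while the prolyl hydroxylase P4ha2 rose by 0.43 ± 0.06. With miR-Exo, 13 fell and 1 rose (median -0.632). With library totals alone 11 and 12 fell and 2 rose in each, with medians of -0.469 and -0.327. Of all 15650 genes, 1832 and 2123 then fell and 6388 and 6962 rose. For miR-Exo 9 fell and 0 rose without erastin (median -0.229), among them P4ha3 at -0.37 ± 0.05, against 6.77% and 4.28% of all genes. Library totals alone gave 6 lower and 0 higher there (median -0.147). In erastin-treated cells 7 fell and 2 rose with miR-Exo (median -0.076), against 15.7% and 15.8% of all genes. Library totals alone gave 5 lower and 5 higher there, with a median of 0.028. Levels of the COPII coat and other ER exit genes also went lower with erastin under TMM, in 15 of 20 with NPPC-Exo and 14 with miR-Exo, against 1 and 2 higher (medians -0.305 and -0.261), led by Sec23a at -0.92 ± 0.05 and -0.94 ± 0.05. With library totals alone the split was 6 lower and 5 higher, and 8 lower and 6 higher, with medians of -0.022 and 0.044.

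Of 8 further genes of the Perk branch, 3 rose and 1 fell with erastin and NPPC-Exo (median 0.15), against 21.4% and 22.1% of all genes. The adaptor Nck1 rose by 0.41 ± 0.06 and the factor Atf4 fell with a log2 fold change of -0.27 ± 0.07. With miR-Exo, 2 rose and 5 fell (median -0.327, against 24.8% and 24.3% of all genes), with Atf4 at -0.71 ± 0.07 and its target Trib3 at -1.41 ± 0.19. The interaction called 4 of the 8 lower (6.61% of all genes), among them Atf4 at -0.44 ± 0.09 (adjusted p 0.00859) and Trib3 at -1.03 ± 0.27 (adjusted p 0.0305). Without erastin, miR-Exo raised 3 of the 8, Ppp1r15a, a phosphatase subunit for eIF2 alpha, by 0.52 ± 0.07, Atf4 by 0.3 ± 0.07 and Trib3 by 0.72 ± 0.19, and lowered 0 (median 0.143), against 4.28% and 6.77% of all genes. With erastin, miR-Exo raised 2 and lowered 3, against 15.8% and 15.7% of all genes, with Ddit3, the factor Chop, at -0.51 ± 0.09. Counts with library totals alone for the Perk branch were 5 higher and 0 lower, 3 and 3, 3 and 0, and 2 and 2 in the order of the 4 comparisons. Those of all 15650 genes were 6388 and 1832, 6962 and 2123, 1294 and 598, and 3827 and 1732.

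The remaining 7 lists are given by their counts under TMM, with medians, for erastin with NPPC-Exo and then with miR-Exo. Among all genes, 21.4% rose and 22.1% fell, then 24.8% and 24.3%. Over the 7 lists, 14 of 109 genes rose (12.8%) and 53 fell (48.6%), then 18 (16.5%) and 58 (53.2%). Scaling by library totals alone gave 40 higher (36.7%) and 18 lower (16.5%), then 44 (40.4%) and 24 (22.0%). Of all 15650 genes, that scaling gave 6388 higher and 1832 lower, then 6962 and 2123. Of 10 further sensors and processing proteases, 0 rose and 5 fell (median -0.218), then 0 and 7 (-0.286), with Creb3l2, a factor of collagen secretion, at -0.44 ± 0.07 and -1.08 ± 0.07. Of 14 other chaperones and co-chaperones, 2 rose and 9 fell (-0.302), then 2 and 6 (-0.159), with Nucb2 at -0.58 ± 0.05 and -0.81 ± 0.05 and the testis-enriched calnexin homologue Clgn at 1.05 ± 0.14 with NPPC-Exo. Of 15 other isomerases and thiol oxidases, 4 rose and 5 fell (-0.082), then 6 and 6 (0.009), with Txndc5 at 0.54 ± 0.06 and 0.4 ± 0.06 and Erp44 at -0.51 ± 0.06 and -0.72 ± 0.06. Of 23 other degradation genes, 3 rose and 12 fell (-0.201), then 4 and 13 (-0.212), with Herpud2 at -0.85 ± 0.06 and -0.78 ± 0.06 and the segregase Vcp at 0.23 ± 0.04 and 0.19 ± 0.04. Of 19 other targeting and translocation genes, 1 rose and 10 fell (-0.282), then 1 and 11 (-0.254), with the receptor subunit Srpra at -0.48 ± 0.04 and -0.33 ± 0.04. Of 15 glycosylation genes, 1 rose and 7 fell (-0.203), then 2 and 8 (-0.13), and of 13 calcium handling genes 3 rose and 5 fell (-0.084), then 3 and 7 (-0.193), with the release channel Itpr1 at -1.1 ± 0.05 and -1.38 ± 0.05. With library totals alone, medians of these lists were between -0.019 and 0.201 with NPPC-Exo and between 0.019 and 0.314 with miR-Exo, so that the sign of most of them turns with the scaling. All lay below the medians of all genes under that scaling, 0.3 and 0.334.

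With miR-Exo against NPPC-Exo and no erastin, 0 of the 109 genes of the same 7 lists rose and 17 fell (15.6%), against 4.28% and 6.77% of all genes. Scaling by library totals alone gave 9 higher and 9 lower (8.3% each), against 1294 and 598 of all 15650 genes. In the order just used, 0 rose and 0 fell among sensors and proteases (median 0.033; 3 rose and 0 fell with library totals alone), 0 and 3 among chaperones (-0.143), 0 and 4 among isomerases (-0.136), 0 and 1 among degradation genes (-0.007), 0 and 3 among translocation genes (-0.135), 0 and 6 among glycosylation genes (-0.157), and 0 and 0 among calcium handling genes (0.043; 2 and 0 with library totals alone). The 6 of the glycosylation list included the oligosaccharyltransferase subunits Magt1 at -0.49 ± 0.08, Ostc at -0.37 ± 0.06 and Rpn2 at -0.26 ± 0.05. ER exit genes had 0 higher and 6 lower (0 and 2 with library totals alone), with Sec23a at -0.41 ± 0.05. In erastin-treated cells ER exit genes had 2 higher and 11 lower (3 and 5 with library totals alone). The counts higher and lower there were 2 and 3, 3 and 6, 4 and 7, 5 and 4, 0 and 7, 2 and 7, and 1 and 4 over the 7 lists. Over the 7 lists that is 17 (15.6%) and 38 (34.9%) of 109, against 15.8% and 15.7% of all genes. Scaled by library totals alone these were 27 (24.8%) and 22 (20.2%), against 3827 and 1732 of all 15650 genes. Degradation genes were the only one of the 7 lists with a median above 0 there (0.041), and with library totals alone 10 of the 23 rose and 1 fell. The ligase Marchf6 was at 0.39 ± 0.06 under TMM.

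Members with and without a motif match moved as follows under TMM. Of the 13 members with at least 1 match, 5 fell with miR-Exo without erastin and 8 with it, and 0 rose in either, with medians of -0.16 and -0.13. Of the 14 members with a window and no match, 2 and 4 fell and 0 rose, with medians of -0.06 and -0.08. Of the 8 members without a window, 5 and 5 fell and 0 and 2 rose, with medians of -0.2 and -0.21. For erastin, 1 of these 8 rose and 4 fell with either exosome, and the 8 were counted under TMM only. Of all genes 4.28% rose and 6.77% fell without erastin, and 15.8% and 15.7% with it. With erastin, 3 of the 13 rose and 4 fell with NPPC-Exo and 4 rose and 4 fell with miR-Exo, against 1 and 8, then 1 and 7, of the 14 without a match, and of all genes 21.4% rose and 22.1% fell, then 24.8% and 24.3%. Scaled by library totals alone, 1 and 4 of the 13 fell with miR-Exo and 0 and 3 rose. The counts were 0 and 3 lower and 0 and 3 higher of the 14. With erastin 10 and 6 of the 13 then rose and 0 fell, against 5 and 5 higher and 3 and 3 lower of the 14. Of all 15650 genes, 598 and 1732 fell and 1294 and 3827 rose with miR-Exo under that scaling. For erastin, 6388 and 6962 rose and 1832 and 2123 fell. The 13 and the 14 come from lists whose members were chosen by function, and no test of the difference was made.

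Summed over the 35 members, the module made up 18377 ± 253 CPM with NPPC-Exo (mean ± SD, n = 3), 16883 ± 116 with miR-Exo, 16266 ± 446 with erastin and NPPC-Exo and 13852 ± 74.2 with erastin and miR-Exo. As a share of raw counts the order differed: 1.61% ± 0.021, 1.57% ± 0.021, 1.74% ± 0.042 and 1.59% ± 0.01. The mean CPM of a member was lowest with erastin and miR-Exo for 20 of the 35 and highest with NPPC-Exo for 17.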

How the data were processed

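Bulk RNA-seq of 12 libraries was made from TRIzol total RNA with strand-marked (dUTP) libraries, per the labels' protocols. The authors deposited 1 table with raw counts per gene and FPKM values per library. StringTie and the build mRatBN7.2 are named in the submitters' processing notes, and the aligner, the counting tool and its strand setting were not given in the sources used here. Coordinates of that table are not printed. Counts as deposited were tested with edgeR 4.0.16 in R 4.3.3 (glmQLFit, robust, all 12 libraries, group means, filterByExpr, TMM), with Benjamini-Hochberg adjustment over 15650 genes and a threshold of 0.05. The tests were checked on simulated data in which few genes changed, in both directions and in a single group. That check does not cover the choice of scaling. The members and lists were chosen with earlier results of these data known.

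Named per library were the sensors, Xbp1, Hspa5 and, in each comparison, up to 6 called members a direction by size of log2 fold change, and from each list up to 3 genes a direction by adjusted p. Alternatives were median-of-ratios factors, library totals alone, DESeq2 1.42.0, limma 3.58.1 on log2(FPKM + 1) and log2(FPKM + 0.1), other filters on low counts, halved counts, only the groups compared, a replicate block and leaving out each library. Deviations from the group mean of same-numbered libraries correlated at 0.12 to 0.34 over 11457 genes between NPPC-Exo and miR-Exo, and at -0.18 to 0.34 over all pairs of groups. NPPC-Exo and miR-Exo were therefore taken as paired by number and the rest were not, but the labels state no pairing. The main tests held no replicate block, and the alternative fit with a block applied it to all 4 groups. Promoter windows are RefSeq's (GRCr8). Protein sequences, planned for this module, were not analysed here. Figures were drawn with matplotlib 3.10.9 in Python 3.11.15.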

Additional observations from a re-analysis of the deposited data

Results flagged for a closer look

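The log2 fold change with erastin differed between the exosomes, by the interaction test of edgeR with a Benjamini-Hochberg adjusted p under 0.05, for 3 members and for genes of the other lists, of which up to 3 a direction are given for each list. Values are the log2 fold change with miR-Exo minus that with NPPC-Exo. Among the members, the difference was -0.37 for Dnajb11, -0.78 for Manf and -0.78 for Serpinh1. In collagen modification it was 0.49 for Plod2, 0.36 for Plod1 and -0.64 for P3h3. In the Perk branch it was -0.44 for Atf4, -1.34 for Nck2 and -1.03 for Trib3. Among sensors and processing proteases it was -0.63 for Creb3l2, -0.66 for Atf6b, -0.81 for Wfs1 and 0.21 for Mbtps1. Isomerases and oxidases gave -0.56 for Gpx7, -0.65 for Txndc11 and 0.49 for Ero1a, and other chaperones 0.41 for Sdf2 and -0.74 for Clgn. ER exit genes gave -0.24 for Kdelr2 and 0.21 for Surf4, calcium handling -1 for Rcn3 and -0.28 for Itpr1, and glycosylation -0.55 for Krtcap2 and 0.36 for Tusc3. The degradation ligase Marchf6 was at 0.4, and Srp9, of the signal recognition particle, at -0.99.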

How the results depend on the processing

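Scaling was the choice that moved the module most. With library totals alone, the members' median log2 fold change for erastin was 0.18 with NPPC-Exo (19 higher, 5 lower) and 0.163 with miR-Exo (16 higher, 5 lower), and for miR-Exo it was -0.075 without erastin (1 higher, 3 lower) and -0.025 with it (8 higher, 11 lower). Of all 15650 genes, 6388, 6962, 1294 and 3827 were then higher and 1832, 2123, 598 and 1732 lower. limma's test on log2(FPKM + 1) gave 0.174 (18 higher, 5 lower), 0.124 (14 higher, 5 lower), -0.077 (1 higher, 2 lower) and -0.026 (8 higher, 11 lower) in the same order. On log2(FPKM + 0.1) it gave 0.175 (18 higher, 5 lower), 0.153 (14 higher, 5 lower), -0.077 (1 higher, 2 lower) and -0.026 (8 higher, 11 lower), and a median of 0.038 for the interaction. FPKM are divided by library totals, so that these 3 settings share their scaling.

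For erastin, 13 members took the other sign with NPPC-Exo and 14 with miR-Exo under each of these 3 settings, listed with library totals alone, then FPKM + 1 and FPKM + 0.1. With NPPC-Exo those called in at least 1 of the fits compared were Calr (0.18, 0.17 and 0.17), Derl2 (0.05, 0.05 and 0.05), Dnajb11 (0.28, 0.27 and 0.28), Herpud1 (0.08, 0.07 and 0.07), Hspa5 (0.21, 0.21 and 0.21), Hyou1 (0.15, 0.14 and 0.15), P4hb (0.16, 0.15 and 0.15), Pdia6 (0.12, 0.12 and 0.12), Ppib (0.02, 0.02 and 0.02) and Sec61a1 (0.14, 0.13 and 0.13), with Derl1 at 0.16 with library totals. Dnajb11 was at 0.0 under TMM and is not among the 13. Those called in none were Manf (0.23, 0.22 and 0.22), Sec61b (0.25, 0.25 and 0.25) and Pdia5 (0.01, 0.01 and 0.02). With miR-Exo the called were Calr (0.24, 0.23 and 0.23), Hspa5 (0.1, 0.09 and 0.09), Pdia3 (0.29, 0.28 and 0.28), Pdia4 (0.19, 0.18 and 0.18), Pdia6 (0.13, 0.12 and 0.12), Ppib (0.05, 0.04 and 0.04), Sec61a1 (0.2, 0.19 and 0.2) and Xbp1 (0.1, 0.09 and 0.09), with Eif2ak3 at 0.16 with library totals. Those called in none were Derl2 (0.14, 0.12 and 0.13), Dnajc3 (0.16, 0.15 and 0.16), Herpud1 (0.13, 0.12 and 0.12), Pdia5 (0.06, 0.05 and 0.05) and Sdf2l1 (0.18, 0.12 and 0.15). For miR-Exo without erastin, Hspa5 (0.03, 0.03 and 0.03), Dnajc10 (0.06, 0.06 and 0.06), Manf (0.05, 0.05 and 0.05) and Edem1 (0.07, 0.07 and 0.07) took the other sign. With erastin these were Edem1 (0.07, 0.06 and 0.06), Edem2 (0.07, 0.06 and 0.06) and, by FPKM alone, Derl3 (0.01 and 0.05). None of these was called in any of the 4 fits. To 2 decimals, 0 members did so for the interaction.

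Other settings moved less. For miR-Exo with erastin, 4 members were called higher with a mean of at least 5 CPM and 4 with only the groups compared. Of 175 member results, 175 kept their side of the threshold and direction with halved counts, 173 with median-of-ratios factors, 167 with DESeq2 and 170 with no filter on low counts. With the replicate block the counts higher and lower were 5 and 15, 6 and 16, 0 and 12, 2 and 16, and 0 and 3 in the order of comparisons above with the interaction last. The replicate block ended the calls of Calr for erastin with NPPC-Exo and Canx for miR-Exo with erastin, added that of Sec61a1 for erastin with miR-Exo, and changed no other call. Over all groups, 6 of 12 libraries correlated best with a library of their own number.

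Leaving out 1 library gave, for erastin with NPPC-Exo, 4 to 6 members higher, 9 to 17 lower and a median of -0.116 to -0.071, and with miR-Exo 4 to 6 higher, 12 to 17 lower and -0.178 to -0.136. For miR-Exo it gave 0 to 1 higher, 8 to 13 lower and -0.177 to -0.132 without erastin, and 2 to 5 higher, 14 to 18 lower and -0.198 to -0.126 with it. For the interaction it gave 0 to 2 higher (2 without NPPC-Exo replicate 1), 3 to 6 lower (6 without replicate 3 of erastin with miR-Exo) and a median of -0.044 to 0.047, below 0 at -0.042 without NPPC-Exo replicate 3, -0.03 without replicate 1 of erastin with NPPC-Exo and -0.044 without replicate 2 of erastin with miR-Exo. The count higher for miR-Exo without erastin was 1 without replicate 3 of erastin with miR-Exo. With erastin it was 5 without NPPC-Exo replicate 1 and 4 without replicate 3 of NPPC-Exo or of miR-Exo.

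Calls not already qualified were lost as follows, with N, M, EN and EM for NPPC-Exo, miR-Exo and the erastin groups with each. For erastin with NPPC-Exo these were Hyou1 without N 2, N 3, EN 1, EN 2, EN 3, EM 1 or EM 2, Pdia6 without N 2, N 3, EN 1 or EN 2, P4hb without N 2, N 3, EN 1, EN 2, EM 1, EM 2 or EM 3, Calr without any library but N 1, and Sec61a1 without EN 1 or EN 2. For erastin with miR-Exo they were Xbp1 without M 2, M 3 or EM 3 and Pdia4 without M 1, M 3 or EM 1. For miR-Exo without erastin they were Xbp1 without N 3 or M 1, Calr without N 3, M 2 or M 3, Canx without N 2, N 3, M 1 or M 2, and Fkbp10 without N 3, M 1 or M 2. For miR-Exo with erastin they were Calr without EN 3 and Canx without N 2, M 2, EN 2, EN 3 or EM 3. Why these calls depend on a library was not tested. Derl3 and Sdf2l1 had the fewest counts of the members, and the part of depth in their errors was not tested.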
